A study of Mus musculus with 35 samples.

Results

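The genes described here are 40 mouse genes of ribosome biogenesis, taken as a fixed list of symbols and followed over all cell types of the study. A probe set with the gene's symbol was found for 38 of the 40, out of 18193 genes that the array's 45101 probe sets represent. Npm3 had no probe set carrying its symbol, and the probe set of Mrto4 was annotated with several genes, so neither was analysed here. Where a gene had several probe sets, the brightest on average across all 35 arrays stood for it. All 38 genes passed the filter on dim genes, and 35 of them lay above the lowest value of the table on every array.

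Total RNA from cells sorted by flow cytometry from male C57BL/6J mice aged 8 weeks was hybridised to 35 Affymetrix Mouse430_2 arrays, with no treatment named. A lineage set of 20 arrays held, from bone marrow, granulocyte-monocyte progenitors (GMP, 1 array), monocyte-dendritic cell progenitors (MDP, 1), common monocyte progenitors (cMoP, 4), SMP, the progenitors named for SatM (4), inflammatory monocytes (2) and SatM, segregated-nucleus-containing atypical monocytes (2), and, from spleen, basophils, eosinophils and neutrophils (2 each). Of the cMoP and of the SMP arrays, 2 each were titled WT and 2 were only numbered. What the WT title separates is not stated, and all 35 arrays carry the same strain label. A tissue panel of 15 arrays held 4 arrays of SatM (1 each of blood, lung, spleen and marrow), 3 of Msr1-Ceacam1- cells (blood, spleen, marrow), 2 of other Ly6C- cells (blood, spleen), 2 of Msr1 dull Ceacam1 dull cells (lung, marrow), 2 of M2-like macrophages (marrow, spleen) and 2 of lung macrophages, of which 1 is titled MP and 1 is titled F480 positive. All 4 arrays labelled lung carry BAL in their titles, which the labels do not spell out. Nothing in the labels says that arrays of a group came from separate mice, so p-values measure only the spread between these samples, which may be technical.

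Several sorts carried markers of other cells. The Msr1-Ceacam1- cells had a mean level of 11.28 to 12.82 (log2) over the 4 NK cell markers measured, against 2.30 to 4.42 on all other arrays, and Csf1r, the receptor of monocytes and macrophages, averaged 5.15 there against 13.64 in SatM of the same panel. SMP had a mean of 12.32 to 12.97 over the 5 basophil markers measured, beside 12.93 and 13.03 in basophils, and a Csf1r mean of 5.16. The 6 neutrophil markers measured averaged 12.05 and 11.38 in basophils, 9.66 and 9.81 in eosinophils, 10.63 in SMP WT 1 and 7.43 to 7.83 in the other SMP arrays, against 14.16 and 14.04 in neutrophils. SatM of the marrow panel had a mean of 10.16 over the 5 GMP markers, against 4.60 and 5.52 in the SatM arrays of the lineage set. Their part in the results was not tested.

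Ribosome biogenesis starts in the nucleolus, where RNA polymerase I transcribes the ribosomal RNA precursor. Small nucleolar ribonucleoproteins then modify the precursor, and large assembly complexes cut and fold it into the small and the large subunit. The process consumes much of the energy of a growing cell and is driven by the transcription factor Myc, which binds DNA with its partner Max. Blood progenitors are known for high rates of ribosome production, and mature neutrophils for compact nuclei and little protein synthesis.

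Because most of the genes moved together across cell types, their promoter windows are shown first. RefSeq (GRCm38.p6) windows of 300 bases, from 250 before to 50 after a start of the gene, were on hand for 32 of the 38 genes. Those of Myc, Npm1, Fbl, Bop1, Rrp12 and Rrs1 were not used here. Rrp1b had 2 windows and Wdr12 had 3, for other starts. For Nle1 and Wdr43 the start used lies inside the listed span of the gene, downstream of its outer end. The E-box CACGTG, which reads the same on both strands and is the letters that Myc with Max is known to bind, was in the windows of 9 of the 32 genes (28.1%), and in 7.15% of all 32851 windows. The motif CCGGAAG, searched on both strands and of the type bound by ETS factors, was in those of 10 of the 32 (31.2%), and in 8.86% of all windows. The motifs cannot overlap, and Nop2, Rrn3 and Tsr1, 3 genes, held both. The stretch around the E-box nearest the start follows for 8 of the 9, in the gene's own direction, with the E-box in capitals.
Imp4: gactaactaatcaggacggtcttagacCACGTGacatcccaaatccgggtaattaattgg
Nle1: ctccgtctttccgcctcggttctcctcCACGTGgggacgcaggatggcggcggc
Nop2: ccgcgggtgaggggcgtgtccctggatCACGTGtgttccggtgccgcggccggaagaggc
Pes1: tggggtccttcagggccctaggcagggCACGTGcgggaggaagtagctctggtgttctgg
Rrn3: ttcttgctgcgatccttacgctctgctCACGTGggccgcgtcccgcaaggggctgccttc
Tsr1: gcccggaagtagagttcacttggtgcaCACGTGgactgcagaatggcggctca
Utp20: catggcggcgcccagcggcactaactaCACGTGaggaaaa
Wdr43: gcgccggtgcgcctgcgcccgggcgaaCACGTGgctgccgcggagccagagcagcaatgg
These stretches lie, on GRCm38.p6, at chr1:34439681-34439740 (Imp4, plus strand), chr11:82908346-82908399 (Nle1, minus strand), chr6:125131796-125131855 (Nop2, plus strand) and chr11:3963950-3964009 (Pes1, plus strand). The others lie at chr16:13780624-13780683 (Rrn3, plus strand), chr11:74898077-74898129 (Tsr1, plus strand), chr10:88826765-88826804 (Utp20, minus strand) and chr17:71616205-71616264 (Wdr43, plus strand). Counting the start used for each window as 1, the E-box began at position -121 in Imp4, -60 in Nop2 and -48 in Rrn3. In the other 6 genes it began between positions 3 and 41, inside the transcribed part.

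The whole windows of Mybbp1a and Polr1a are shown because these genes were the most and the least like the rest of the list across the arrays. Capitals mark the E-box, and neither motif was in the window of Polr1a.
Mybbp1a: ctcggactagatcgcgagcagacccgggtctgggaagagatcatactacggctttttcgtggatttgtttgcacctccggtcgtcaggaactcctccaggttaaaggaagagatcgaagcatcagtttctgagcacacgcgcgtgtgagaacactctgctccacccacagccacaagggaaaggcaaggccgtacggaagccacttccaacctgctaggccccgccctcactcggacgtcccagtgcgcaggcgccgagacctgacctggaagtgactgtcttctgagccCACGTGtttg
Polr1a: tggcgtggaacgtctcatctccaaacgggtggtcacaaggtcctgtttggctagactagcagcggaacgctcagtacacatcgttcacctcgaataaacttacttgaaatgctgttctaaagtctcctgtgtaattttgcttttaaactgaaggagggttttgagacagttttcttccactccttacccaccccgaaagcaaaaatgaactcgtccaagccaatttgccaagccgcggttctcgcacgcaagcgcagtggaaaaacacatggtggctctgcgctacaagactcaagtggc
The Mybbp1a window spans chr11:72441077-72441376 and the Polr1a window chr6:71908803-71909102, both on the plus strand. A match to these letters describes the window and is not a mapped binding site.

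The genes were at their highest in the earliest progenitors and at their lowest in neutrophils. With each gene's level set to 0 at its mean over the 35 arrays, the mean over the 38 genes was 1.94 in GMP, 1.31 in MDP and 0.82 to 1.24 in the 4 cMoP arrays (log2 throughout). It was -0.66 to -0.97 in the 4 SMP arrays and -3.01 and -2.76 in neutrophils, so the arrays covered a range of 4.95. Every SMP array lay below every cMoP array, and no other array came near the neutrophils. GMP was the highest array for 24 of the 38 genes and a cMoP array for 5, while a neutrophil array was the lowest for 29 and an SMP array for 6.

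Between these ends, many neighbouring cell types overlapped. Lineage-set SatM lay at -0.61 and -0.46, basophils at -0.70 and -0.19, inflammatory monocytes at -0.38 and -0.31 and other Ly6C- cells at -0.14 and -0.10. The spread of the basophils took in lineage-set SatM and inflammatory monocytes, which lay close but apart. Panel SatM ranged from -0.23 in blood to 0.53 in lung, lung macrophages lay at 0.20 and 0.35, M2-like macrophages at 0.14 and 0.54, and Msr1-Ceacam1- cells between 0.27 and 0.62. The ranges of these last groups all overlapped that of panel SatM. Eosinophils lay at 0.23 and 0.70 and the Msr1 dull Ceacam1 dull cells at 0.23 in lung and 0.85 in marrow, the latter within the range of the cMoP arrays. Array medians (2.31 to 2.39) and upper quartiles (6.09 to 6.56) lay close together, though how the authors normalised the values is not given. A shift shared by most genes may thus not show. In bulk samples fewer cells of a type and less RNA per cell cannot be told apart.

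**Figure D1:**
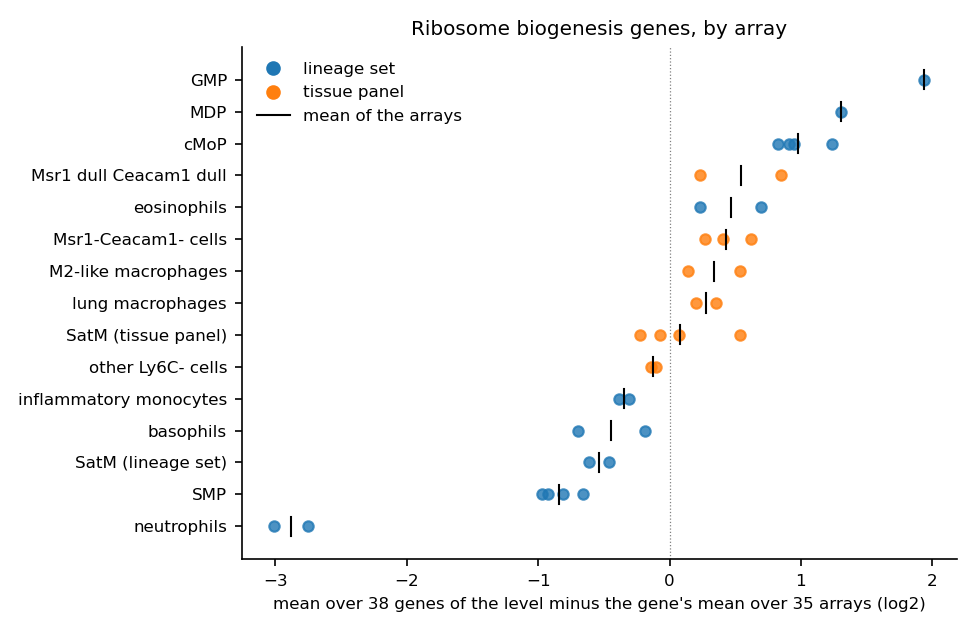
Mean over the 38 ribosome biogenesis genes of the log2 level minus the gene's mean over 35 arrays (x axis), for each array (points), by cell type (rows), with the mean of the arrays as a black bar. GMP lies at 1.94, the 4 cMoP arrays at 0.82 to 1.24, the 4 SMP arrays at -0.97 to -0.66 and the neutrophils at -3.01 and -2.76.

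Single genes followed the common pattern to different degrees. The correlation of a gene with the mean of the other 37 over the 35 arrays, given as a description because arrays of a cell type share their source and every array its normalisation, was above 0.8 for 19 genes. It was highest for Mybbp1a (0.97), a nucleolar protein that binds Myb and takes part in ribosomal RNA synthesis, for Fbl (0.93), fibrillarin, the methyltransferase of box C/D small nucleolar ribonucleoproteins, and for Gnl3 (0.93), the nucleolar GTPase nucleostemin. It was lowest for Polr1a (-0.22), the largest subunit of RNA polymerase I, followed by Bop1 (0.54), Imp4 (0.54) and Heatr1 (0.54). Myc stood at 0.69. The range over the arrays was 0.90 for Nle1, which lay at 3.79 on most arrays, and 8.80 for Wdr43, with a median of 5.85 over the 38 genes.

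Polr1a ran against the list in neutrophils. Among the progenitors it went with the list, at 6.02 in GMP, 5.85 in MDP, 4.38 to 5.43 in cMoP and 3.56 to 4.09 in SMP. Its correlation without the neutrophil arrays was not computed. In neutrophils its level was 7.73 and 7.40, above all other arrays, which lay between 3.56 and 6.54. The other probe sets that measured Polr1a read the same way in part: 1456066_a_at was at 5.97 and 5.68 in neutrophils and between 2.46 and 5.33 elsewhere, and 1460215_at was at 5.08 and 4.74 in neutrophils and between 2.39 and 5.23 elsewhere. For the second of these a cMoP array, cMoP WT 2, exceeded both neutrophil arrays. The remaining 2 probe sets of Polr1a lay at the lowest value of the table, 2.30, on all arrays. Polr1b, the second largest subunit, was at 2.30 on both neutrophil arrays, and Polr1c, a subunit shared with RNA polymerase III, was at 4.18 and 5.29 there against 5.74 to 9.92 on all other arrays.

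**Figure D2:**
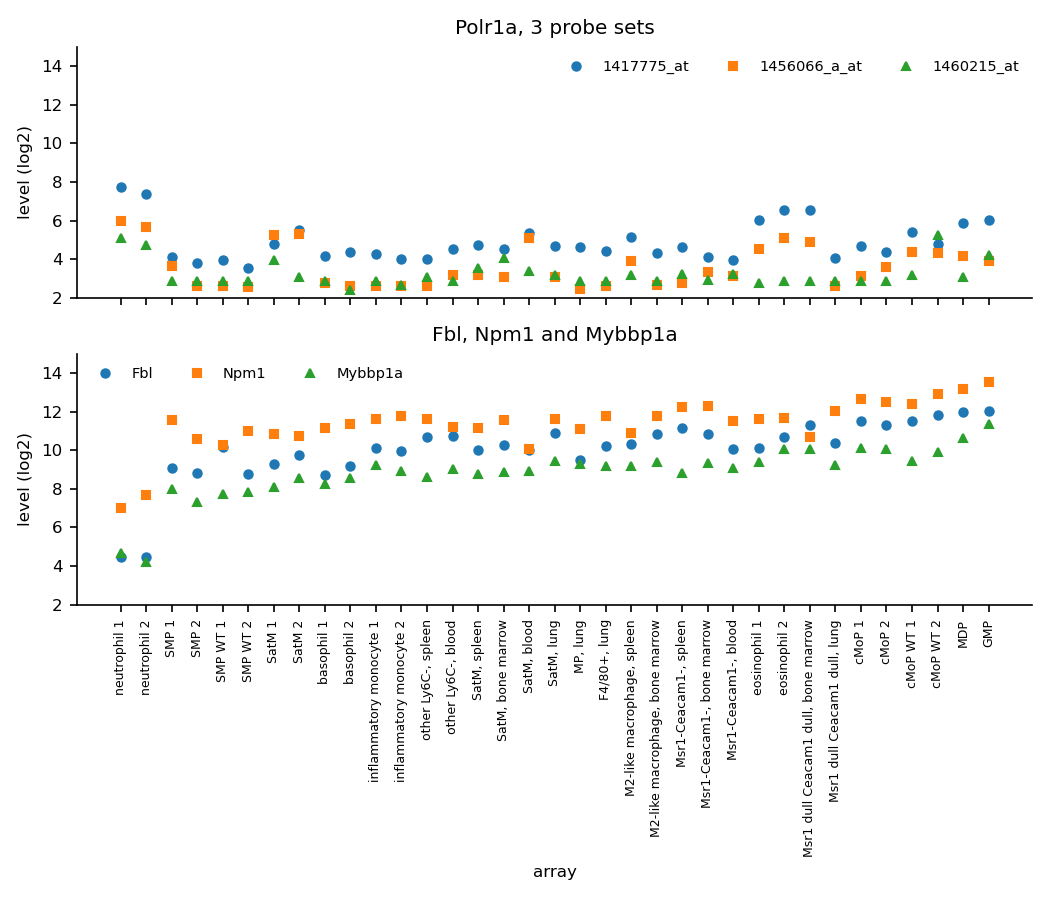
Levels (log2, y axis) on the 35 arrays (x axis, ordered by cell type from the lowest to the highest mean over the list) of 3 probe sets of Polr1a (upper panel) and of Fbl, Npm1 and Mybbp1a (lower panel). Polr1a on its main probe set reads 7.73 and 7.40 in neutrophils, where Fbl reads 4.45 on both arrays.

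**Figure D3:**
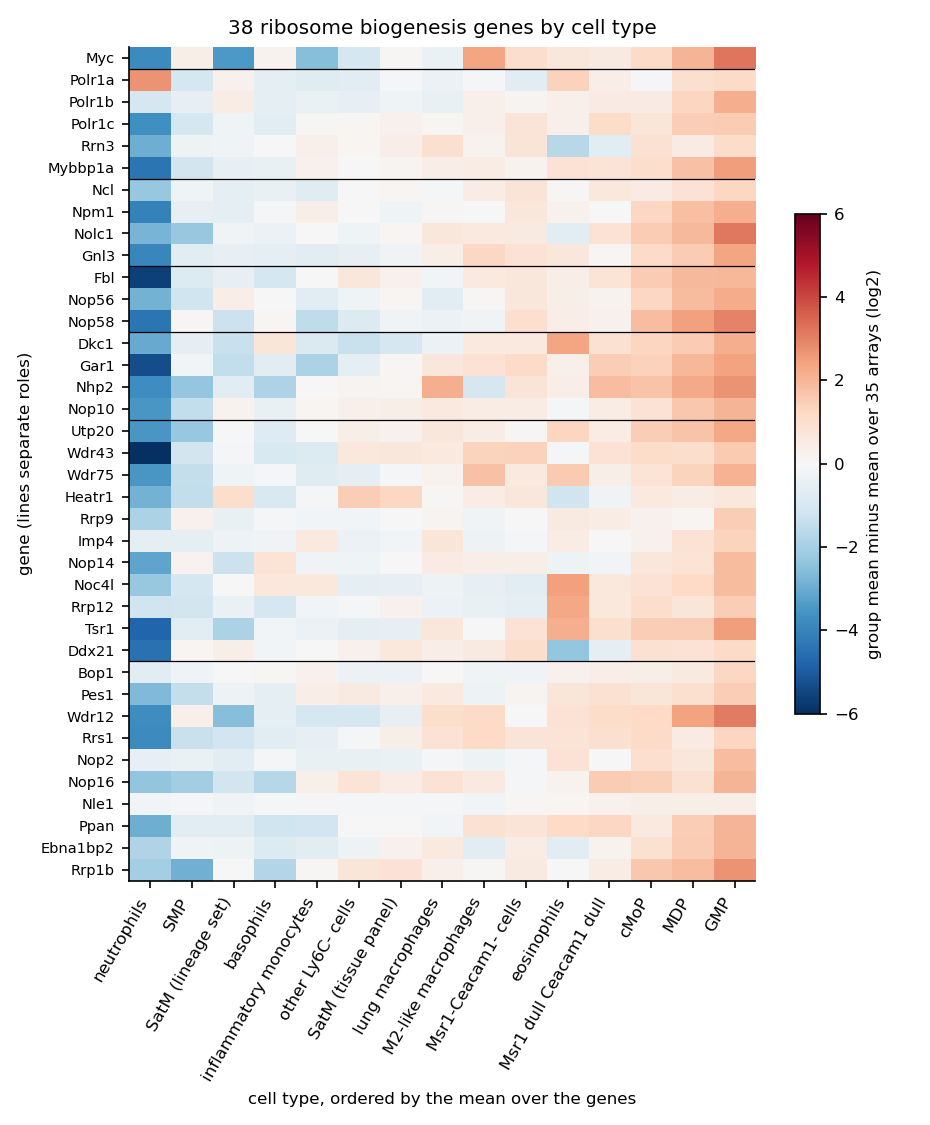
Mean level of each of the 38 genes (rows, grouped by role in the order Myc, RNA polymerase I, nucleolar scaffold, box C/D, box H/ACA, small subunit, large subunit) in each cell type (columns), minus the gene's mean over the 35 arrays (colour, log2). Nearly all rows run from blue in neutrophils to red in GMP, and Polr1a is red in neutrophils, where its level is 7.73 and 7.40.

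SMP were first set against cMoP, the progenitor of inflammatory monocytes. SMP were lower than cMoP in 27 of the 38 genes and higher in none, and all 38 fitted differences were below 0, with a median of -1.80. Of the 12077 genes tested, 22.7% were called lower and 12.8% higher, with a median of -0.09. A gene was called at an adjusted p under 0.05 with a log2 difference of at least 1 (limma, Benjamini-Hochberg over all genes tested). The order held within each title set: 37 of the 38 genes were lower in SMP among the numbered arrays, with a median of -1.58, and 38 of 38 among the WT arrays, with a median of -1.82. Leaving out SMP WT 1, the array with the higher neutrophil markers, left 26 genes called lower.

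All 4 box H/ACA genes and all 3 box C/D genes were lower in SMP. Their products are proteins of the small nucleolar ribonucleoproteins that pseudouridylate (H/ACA) and methylate (C/D) ribosomal RNA. Nhp2, a core box H/ACA protein, read 7.97, 7.79, 7.78 and 8.88 on the cMoP arrays and 6.43, 2.83, 3.29 and 3.61 on the SMP arrays. The groups did not overlap, though SMP 1 lay well above the other SMP arrays, and the difference was -4.06 (SE 0.69, adjusted p = 0.000394). Fbl read 11.51, 11.29, 11.49 and 11.83 in cMoP and 9.07, 8.80, 10.18 and 8.75 in SMP. All SMP arrays lay below all cMoP arrays (difference -2.33, SE 0.26, adjusted p = 1.49e-05). The other members of these groups were Nop56 at -2.42, Nop58 at -1.78, Nop10 at -2.35, Dkc1, the pseudouridine synthase dyskerin, at -1.86 and Gar1 at -1.56.

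Among the nucleolar scaffold genes, 3 of 4 were called lower. Nolc1, a chaperone of small nucleolar ribonucleoproteins, read 9.65, 9.52, 8.21 and 9.51 in cMoP, 7.20 and 6.49 in the numbered SMP arrays and 3.77 and 4.19 in the WT ones. The numbered and WT arrays of SMP thus stood apart, and both lay below cMoP (difference -3.81, SE 0.46, adjusted p = 2.69e-05). Npm1, nucleophosmin, read 12.65, 12.52, 12.38 and 12.93 in cMoP and 11.59, 10.59, 10.29 and 10.99 in SMP. The groups did not overlap (difference -1.76, SE 0.24, adjusted p = 6.96e-05). Ncl, nucleolin, was not called on its brightest probe set and overlapped at its edges, with 10.59 to 11.44 in cMoP and 9.64 to 10.73 in SMP, and its difference of -0.75 (adjusted p = 0.0127) was under the fold threshold. Averaged over the gene's probe sets, Ncl was called lower (-1.47, adjusted p = 0.000322).

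For the large subunit 7 of 10 genes were lower and for the small subunit 7 of 11. Rrp1b, a processing factor of the large subunit, read 9.42, 9.37, 9.81 and 10.80 in cMoP and 3.62, 7.41, 4.45 and 5.96 in SMP. The 4 SMP arrays were widely spread but all lay below cMoP (difference -4.49, SE 0.68, adjusted p = 0.000151). Nop16, of the large subunit too, read 6.38, 6.77, 6.39 and 6.70 in cMoP, and 2.77, 2.77, 2.76 and 3.96 in SMP. Here 3 of the SMP arrays lay at the lowest readings of this probe set (difference -3.49, SE 0.41, adjusted p = 2.07e-05). Utp20, a component of the small subunit processome, read 7.45, 7.45, 7.36 and 7.94 in cMoP and 2.91, 5.34, 4.11 and 2.88 in SMP, again without overlap (difference -3.74, SE 0.50, adjusted p = 5.8e-05). Rrp9 differed least, by -0.03 (SE 0.35).

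Of the 5 genes of RNA polymerase I and its factors, 3 were called lower: Mybbp1a at -2.17, Polr1c at -1.75 and Rrn3, the initiation factor TIF-IA, at -1.23. Polr1a (-0.96, adjusted p = 0.0112) and Polr1b (-0.96, adjusted p = 0.0537) were not called. Myc itself was not among the genes called. It read 7.38, 7.24, 8.40 and 9.48 in cMoP and 7.83, 6.23, 6.61 and 8.73 in SMP, with overlapping arrays and a difference of -0.78 (SE 0.52, adjusted p = 0.249). Of the 9 genes with an E-box in the promoter window 7 were lower in SMP, and of the 23 with a window and no E-box 16 were, with medians of -2.16 and -1.78. The order was the reverse for cMoP against inflammatory monocytes, a comparison described below. There 3 of the 9 and 10 of the 23 were higher in cMoP, with the larger median in the genes without an E-box. Whether genes with and without an E-box differ was not tested.

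Other lists of the same machinery were read against the 22.7% of all genes called lower in SMP. In a list of 100 further ribosome biogenesis genes, 55 were lower and 1, Rcl1, was higher, with a median of -1.15. The lowest were Ltv1 (-3.84), Pno1 (-3.59) and Bysl (-3.36), all of late small subunit assembly. Of 12 genes of the RNA exosome, which trims ribosomal RNA, 9 were lower and Exosc8 was higher. Among 44 ribosomal protein genes tested, 8 were lower, a smaller share than that of all genes, with a median of -0.68. SMP were lower in 10 of 15 proliferation genes, with a median of -1.28, led by Ccnd1 (-3.25), Mcm5 (-2.91) and Aurkb (-2.60), and the part of proliferation in the difference was not tested. Mki67 (-0.29), Top2a (-0.42) and Rrm2 (-0.41) were not called. Of the Myc network, Mxd1, a repressor that competes with Myc for Max, was higher in SMP by 4.63 (adjusted p = 5.48e-09) and Max by 1.32 (adjusted p = 5.84e-06), while Mycl was lower (-2.09, adjusted p = 0.000512).

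The step from progenitor to monocyte was then compared between the 2 lineages. cMoP were higher than inflammatory monocytes in 17 of the 38 genes and lower in none, with a median of 1.34, against 9.05% of all genes called higher, 10.8% called lower and a median of 0. SMP were higher than SatM in 6 genes and lower in 8, with a median of -0.27, against 13.1% of all genes called higher and 15.5% lower. The difference between the 2 steps was called for 18 of the 38 genes, each with the larger progenitor excess on the cMoP side, with a median of 1.62, against 11.1% of all genes in that direction and 11.1% in the other. No gene was called in the other direction. This difference is computed from the same cMoP and SMP arrays as the comparison of SMP with cMoP. Its calls are therefore not independent of the genes called there. The counts rest on pairs of monocyte arrays: without inflammatory monocyte 2 they were 8 for the first step and 11 for the difference, without inflammatory monocyte 1 the first was 10, and without SatM 2 the second was 7.

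Myc had the largest excess in both progenitors. It read 3.96 and 4.92 in inflammatory monocytes, 2.93 and 4.18 in SatM, 7.24 to 9.48 in cMoP and 6.23 to 8.73 in SMP, so that neither progenitor overlapped its monocyte. The difference was 3.68 (SE 0.64, adjusted p = 0.00101) in the cMoP lineage and 3.79 (SE 0.64, adjusted p = 0.000466) in the SMP lineage, and these differed by -0.11 (SE 0.90, adjusted p = 0.979). SatM of the marrow panel, normalised in the same table, read 7.67 for Myc, within the range of SMP. With that array added to the SatM group the Myc difference was 2.42 (adjusted p = 0.0548), and of the 38 genes 10 were lower in SMP and none was higher. The share of all genes called with that array added is not given here, so this count is not read as a result about the list.

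In the cMoP lineage the 2 largest differences after Myc were those of genes of small nucleolar ribonucleoproteins. Nop58, a core box C/D protein, read 8.72, 8.25, 8.28 and 9.74 in cMoP and 4.99 and 5.78 in inflammatory monocytes (difference 3.36, SE 0.48, adjusted p = 0.000253). Gar1 read 8.89, 8.94, 10.60 and 10.23 in cMoP and 6.21 and 6.60 in the monocytes (difference 3.26, SE 0.35, adjusted p = 2.6e-05). Neither gene overlapped between the groups. Dkc1 (2.16), Wdr12 (2.27), of the complex with Pes1 and Bop1 that matures the large subunit, Fbl (1.48) and Ncl (1.26) were called higher too. The calls of Wdr12 and Fbl ended without inflammatory monocyte 2 (adjusted p = 0.154 and 0.0606), and those of Wdr12 and Ncl without inflammatory monocyte 1 (adjusted p = 0.103 and 0.0643). Wdr12 also missed the threshold without cMoP 1 (adjusted p = 0.0553) or cMoP 2 (adjusted p = 0.0558). Npm1 was not called, with 12.38 to 12.93 in cMoP and 11.62 and 11.77 in the monocytes and a difference of 0.93 (SE 0.29, adjusted p = 0.037), which was 1.01 (adjusted p = 0.0453) without cMoP 2. None of the 5 genes of RNA polymerase I and its factors was called, with differences of 0.61 to 0.89.

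In the SMP lineage the shares called in each direction were near those of all genes, so the counts say little about the list. Beside Myc, the genes higher in SMP were Wdr12 at 2.89 (SE 0.65, adjusted p = 0.00371), Nop14 at 1.51, Nop58 at 1.34, Gar1 at 1.30 and Tsr1 at 1.19. Wdr12 read 7.39, 5.73, 6.91 and 8.77 in SMP and 4.97 and 3.65 in SatM, without overlap, and Nop14, of small subunit assembly, 6.26 to 7.82 against 5.76 and 5.49. The call of Myc held without any 1 array, and each of the others ended without a single SatM array: Gar1 (adjusted p = 0.177) and Tsr1 (adjusted p = 0.464) without SatM 1, and Wdr12 (adjusted p = 0.069), Nop14 (adjusted p = 0.0543) and Nop58 (adjusted p = 0.382) without SatM 2. All 6 missed the threshold once marrow SatM of the panel was added, with differences of 0.60 to 2.42. Rrp1b was lower in SMP, at 3.62 to 7.41 against 8.69 and 7.92 in SatM (difference -2.94, SE 0.83, adjusted p = 0.0152). Heatr1, a processome component, read 5.18, 4.40, 7.14 and 6.59 in SMP and 8.82 and 7.98 in SatM (difference -2.57, SE 0.45, adjusted p = 0.000647), and its SMP arrays parted by title set. The call of Rrp1b ended without SatM 1 (adjusted p = 0.123), that of Utp20 without SatM 2 (adjusted p = 0.175) and that of Nolc1 without either (adjusted p = 0.0921 and 0.0556). Utp20 (-2.26), Nolc1 (-2.07), Nop10 (-1.66), Nop56 (-1.56), Polr1a (-1.30) and Pes1 (-1.12) were lower too, and Npm1, Fbl and Ncl were not called at 0.09, -0.32 and 0.33. With the mean of the probe sets, Tsr1 (0.68, adjusted p = 0.143) and Nolc1 (-1.24, adjusted p = 0.063) were not called. Of the 15 proliferation genes 13 were higher in SMP than in SatM, and 15 were higher in cMoP than in inflammatory monocytes. Ccnd1 (0.27, adjusted p = 0.851) and Pcna (0.41, adjusted p = 0.26) were not called in SMP.

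The largest differences between the steps were those of Rrp1b at 4.48 (SE 1.17, adjusted p = 0.0146), Utp20 at 3.71 (SE 0.87, adjusted p = 0.00771), Nolc1 at 3.57 (SE 0.80, adjusted p = 0.00616), Nop56 at 3.45 (SE 0.43, adjusted p = 9.93e-05) and Heatr1 at 3.20 (SE 0.63, adjusted p = 0.00276). Rrp1b missed the threshold without SatM 1 (adjusted p = 0.0628) or inflammatory monocyte 2 (adjusted p = 0.0658). Nop56, a core box C/D protein, read 11.59, 11.39, 11.08 and 11.30 in cMoP and 9.47 and 9.44 in inflammatory monocytes, and 9.91, 8.52, 8.71 and 8.54 in SMP and 10.52 and 10.44 in SatM. It was thus higher than the monocyte in every cMoP array and lower than the monocyte in every SMP array. All 3 box C/D genes were among the 18, with Fbl at 1.80 (adjusted p = 0.0126) and Nop58 at 2.02, as were 5 of 11 small subunit and 4 of 10 large subunit genes. Fbl missed the threshold without inflammatory monocyte 2 (adjusted p = 0.0583) or SatM 2 (adjusted p = 0.0646). Ncl (0.92, adjusted p = 0.0973) and Npm1 (0.84, adjusted p = 0.177) were not called, and passed without SatM 2 (Ncl, 1.39, adjusted p = 0.0166) and without SMP 1 (Npm1, 1.09, adjusted p = 0.0308).

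**Figure D4:**
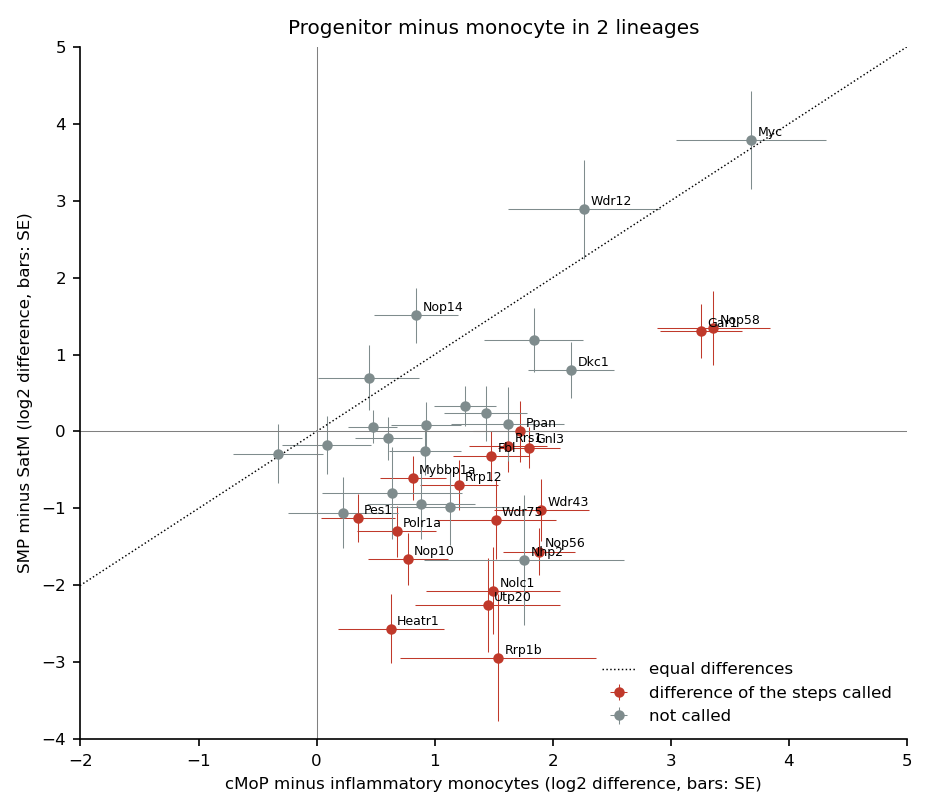
Fitted log2 difference of cMoP from inflammatory monocytes (x axis) and of SMP from SatM (y axis) for the 38 genes, with standard errors as bars, and the line of equal differences dotted. Myc, at 3.68 and 3.79, lies near the line, and the 18 genes in red, whose difference between the steps was called, lie below it.

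Neutrophils were set against each of the other mature cells. Basophils were higher than neutrophils in 27 of the 38 genes and lower in 1, with a median of 2.87, against 21.9% and 15.6% of all genes. Eosinophils were higher in 31 and lower in 1, with a median of 3.47, against 23.1% and 17.4%, and the monocytes of the marrow (inflammatory monocytes and SatM) higher in 29 and lower in 1, with a median of 2.69, against 20.3% and 16.2%. The gene on the other side was Polr1a in each. These comparisons share the neutrophil arrays, and the cells differ in tissue too for the monocytes. Leaving out any array of the compared groups gave 24 to 28, 27 to 31 and 27 to 30 genes called.

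Fbl read 4.45 on both neutrophil arrays, 8.74 and 9.20 in basophils, 10.14 and 10.71 in eosinophils, 10.13 and 9.98 in inflammatory monocytes and 9.30 and 9.74 in SatM. Neutrophils lay below every other mature array of the lineage set. The fitted differences were 4.52 from basophils (SE 0.37, adjusted p = 1.06e-06), 5.97 from eosinophils (SE 0.37, adjusted p = 8.55e-08) and 5.34 from marrow monocytes (SE 0.32, adjusted p = 4.7e-08). Both neutrophil arrays share the lowest reading of the Fbl probe set, so these may be lower bounds. The tie alone does not show a limit of detection. Npm1 read 6.99 and 7.67 in neutrophils and 10.72 to 11.77 in the other 8 arrays, with differences of 3.94, 4.31 and 3.91. Wdr43, a processome component, read 2.73 and 4.01 in neutrophils, 8.04 and 9.14 in basophils, 8.89 and 9.94 in eosinophils and 8.62 to 9.65 in marrow monocytes, the largest difference from basophils (5.22) and from monocytes (5.70). Tsr1, of late small subunit maturation, at 2.88 and 2.58 in neutrophils and 9.45 and 9.88 in eosinophils, differed the most from eosinophils (6.93, SE 0.48, adjusted p = 2.35e-07). Ncl did not overlap, at 8.21 and 8.27 in neutrophils and 9.49 to 10.68 in the others. Mybbp1a read 4.66 and 4.23 in neutrophils and 8.07 to 10.07 in the others, Gar1 3.32 and 2.60 against 6.21 to 8.99, and Ddx21 7.15 and 7.90 against 9.14 to 12.35. Each of these 4 genes was called higher in all 3 comparisons. Nop58, Polr1b and Rrp9 were at the lowest value of the table on 1 neutrophil array each, which limits how far their differences can be read.

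Myc had low readings in both monocytes and neutrophils. It read 2.93 and 3.37 in neutrophils, 6.97 and 7.45 in basophils and 7.67 and 7.62 in eosinophils, a difference of 4.07 (SE 0.73, adjusted p = 0.000666) and 4.50 (SE 0.73, adjusted p = 0.000305). Marrow monocytes, at 2.93 to 4.92, overlapped the neutrophils, and the difference of 0.85 (SE 0.64) was not called (adjusted p = 0.327). SatM 1 and neutrophil 1 share the lowest reading of this probe set, so the difference there may be bounded and does not show that Myc was alike in the 2 cell types. Mxd1 was lower in the marrow monocytes than in neutrophils, with a value of -5.47 (adjusted p = 5.4e-09), as were Max at -1.85 and Mxi1 at -1.51. Polr1a differed from neutrophils by -3.29 (SE 0.38, adjusted p = 2.11e-05) in basophils, -1.28 (SE 0.38, adjusted p = 0.0157) in eosinophils and -2.92 (SE 0.33, adjusted p = 1.37e-05) in marrow monocytes. The call against eosinophils ended without eosinophil 1 (adjusted p = 0.103) or neutrophil 1 (adjusted p = 0.0974), and with the mean of the probe sets the difference was -0.88, under the fold threshold.

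The ribosomal protein genes, the products to be assembled, were lower in neutrophils as well: 38 of 44 tested were higher in marrow monocytes, with a median of 2.29, and so were 63 of the 100 further ribosome biogenesis genes, with a median of 1.92. Proliferation genes did not separate these cells in the same way, with 2 of 15 higher and 5 lower in the monocytes, but 13 of 15 higher in basophils and in eosinophils. Between monocytes and neutrophils, Cdk1 (-3.54), Ccna2 (-3.04) and Top2a (-1.92) were higher in the neutrophils.

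Eosinophils kept their own pattern within the list. Dkc1 read 12.08 and 12.71 in eosinophils, and the second was the highest of all 35 arrays. Noc4l, of small subunit assembly, read 10.76 and 11.46, and Rrp12 5.92 and 6.71, again with an eosinophil array as the highest of all. Ddx21, an RNA helicase that acts on polymerase I and II transcription, went the other way, at 10.17 and 9.14 against 11.47 to 13.41 in all other lineage-set arrays but neutrophils, and Rrn3 read 7.93 and 8.19 against 8.88 or more there.

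Among the other comparisons of the lineage set, few genes of the list were called. GMP and MDP, 1 array each and assumed to vary like the other groups, were higher than cMoP in 1 gene, Mybbp1a, at 11.34 and 10.62 against 9.46 to 10.13 (difference 1.09, SE 0.28, adjusted p = 0.0303). The median over the list was 0.69, 35 of 38 differences were above 0, and 3.68% of all genes were called higher and 2.93% lower. With 1 gene called, the count says little about the list. Myc read 10.19 in GMP and 9.04 in MDP and differed from cMoP by 1.49 (SE 0.64, adjusted p = 0.209), or by 2.30 (adjusted p = 0.0333) and called with the numbered set alone. Mybbp1a missed the call without GMP (adjusted p = 0.548), cMoP 2 (adjusted p = 0.0563) or cMoP WT 1 (0.94, adjusted p = 0.0701), and with the mean of its probe sets (adjusted p = 0.0501) or the numbered set alone (0.88, adjusted p = 0.124). Over the list 2 genes were called without MDP and 3 without cMoP WT 2.

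SatM and inflammatory monocytes did not differ in any of the 38 genes by this rule, with a median of -0.23, against 2.87% of all genes higher and 6.47% lower in SatM. By unadjusted p under 0.05 in limma, 3 of the 38 genes were higher and 5 lower in SatM, beside 2799 of all 12077 genes in either direction. This count thus says little about the list. SMP were lower than basophils in 4 genes (Nolc1 at -1.95, Noc4l at -1.69, Dkc1 at -1.30 and Nop56 at -1.17) and higher in none, with a median of -0.37, against 2.35% higher and 9.17% lower over all genes. The share called lower was near that of all genes, so this count too says little about the list. The count was 6 with the WT arrays of SMP alone and 0 with the numbered ones alone. Without basophil 2 it was 0, and without basophil 1 or SMP WT 1 it was 1. Myc, Ncl, Npm1 and Fbl differed by 0.14, 0.19, -0.40 and 0.23, with adjusted p of 0.982, 0.733, 0.426 and 0.734.

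The WT-titled arrays of cMoP and SMP were higher than the numbered ones in 4 genes and lower in 2, with a median of -0.01, against 2.34% and 10.1% of all genes. Heatr1 read 7.94 to 9.02 in cMoP WT against 7.15 and 7.44 in numbered cMoP, and 6.59 and 7.14 in SMP WT against 4.40 and 5.18 in numbered SMP (difference 1.63, SE 0.37, adjusted p = 0.0102). On this probe set the WT arrays were higher within both progenitors, and with the mean of its probe sets the difference was 0.60 (adjusted p = 0.0802) and was not called. Wdr43, Gar1 (1.37) and Rrs1 (1.14) were higher too, and Nolc1 (-1.80) and Noc4l (-1.44) lower. With the mean of the probe sets Nolc1 was at -0.03 (adjusted p = 1.0), so its difference rests on 1 probe set, and Rrs1 missed the threshold (1.05, adjusted p = 0.0501). The call of Nolc1 ended without SMP WT 1 (adjusted p = 0.0548), that of Noc4l without SMP 2 (adjusted p = 0.063), cMoP WT 1 (adjusted p = 0.0508) or SMP WT 1 (adjusted p = 0.0587). Myc (1.13, adjusted p = 0.152) passed without SMP WT 1 (1.66, adjusted p = 0.0297).

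In the tissue panel, SatM was the reference, and differences were fitted with tissue as a term. Msr1-Ceacam1- cells were higher in 2 genes and lower in none, with a median of 0.44, against 5.28% and 4.94% of all genes. The share called higher was near that of all genes, so this count says little about the list. Npm1 read 12.24 in spleen, 12.30 in marrow and 11.52 in blood, against 11.18, 11.58 and 10.06 in SatM of the same tissues, higher in each (fitted difference 1.19, SE 0.30, adjusted p = 0.0422). Nop58 read 8.11, 8.31 and 7.36 against 7.04, 7.34 and 5.66 (1.17, SE 0.31, adjusted p = 0.05, just under the threshold before rounding). The count was 0 without marrow or blood SatM or without the spleen or blood Msr1-Ceacam1- array, 1 without spleen SatM or the marrow Msr1-Ceacam1- array and 5 without lung SatM. With the mean of its probe sets Npm1 missed the threshold (adjusted p = 0.0595). These cells carried the NK cell markers described above, at a mean of 11.28 to 12.82, whose part in the values of these 2 genes was not tested.

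M2-like macrophages were higher in 1 gene, Wdr75, a processome component, at 10.15 in spleen and 8.60 in marrow against 7.04 and 7.24 in SatM (fitted difference 2.02, SE 0.50, adjusted p = 0.047), and lower in none. The median was 0.24, and 5.39% and 2.92% of all genes were called higher and lower. Leaving out the spleen M2-like array, or SatM of spleen, marrow or blood, ended the call, and without lung SatM 2 genes were called. With the mean of its probe sets Wdr75 was at 1.03 (adjusted p = 0.0751). The spleen M2-like array also had the highest Myc level of the panel, 9.99, beside 8.12 in spleen SatM. Its mean over 4 T cell markers was 8.47 and over 5 B cell markers 8.08, whose part in these values was not tested.

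No gene of the list was called in the remaining panel comparisons. Lung macrophages had a median of 0.03 against 0.128% of all genes higher and 0.111% lower, and other Ly6C- cells one of -0.05 against 0.0597% and 0.00852%. Against lung SatM, the SatM array of their own tissue, the lung macrophage arrays had medians of -0.10 (F480 positive) and -0.27 (MP), with 13 and 7 of 38 genes above 0, in single arrays with no test. In neither fitted comparison did a gene of the list have an unadjusted p under 0.05 (limma). Of all 11734 genes, 806 did for lung macrophages and 907 for other Ly6C- cells. The Msr1 dull Ceacam1 dull cells had a median of 0.35, with 0.102% of all genes higher and 0.153% lower. At an unadjusted p under 0.05 (limma), 1 gene of the list was higher and 3 lower, beside 2281 of all 11734 genes in either direction. Lung SatM was the highest SatM array of the list mean, and without it 2 genes were called in lung macrophages and 10 in the dull cells. The shares of all genes called without it are not given here, so these counts are not read as results about the list.

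The dull cells of marrow and lung did not look alike. Against SatM of the same tissue, in single arrays with no test, the marrow cells had a median of 0.91 with 31 of 38 genes above, and the lung cells one of -0.31 with 5 of 38 above. Dkc1 read 12.10 in marrow dull cells and 9.76 in marrow SatM, and 9.80 in lung dull cells and 10.15 in lung SatM. Nop16 read 7.10 against 3.42 in marrow and 6.19 against 7.86 in lung, where SatM was the highest of all 35 arrays. The marrow dull cells had a mean of 10.78 over the GMP markers, 10.75 over the neutrophil markers and 8.23 over the eosinophil markers, and the lung dull cells 6.38, 3.96 and 4.39, and the part of these in the difference was not tested. Like the eosinophils, the marrow dull cells had a low Ddx21 (10.67) and Rrn3 (7.87) and a high Noc4l (10.47).

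Across all 35 arrays the list moved with other genes of the same process. The mean of the 100 further ribosome biogenesis genes followed that of the 38 with a correlation of 0.96, the 12 exosome genes with 0.84, the 45 ribosomal protein genes with 0.82 and the 15 proliferation genes with 0.51, while the 12 genes of the Myc network, most of them repressors or partners, had -0.68. Neutrophils, 2 of the 35 points, lie at the low end of the list mean in each relation. They were not the lowest for proliferation, at -2.41 and -1.39, where other Ly6C- cells reached -3.28 and panel SatM -3.19. For the exosome they lay at -1.39 and -0.90, and an SMP array at -1.47. Beside the monocyte and macrophage arrays, proliferation and ribosome biogenesis parted in SMP and basophils. The proliferation mean was 0.72 to 0.89 in SMP and 1.56 and 1.94 in basophils. It was -3.28 to 0.33 in the monocyte and macrophage arrays other than marrow SatM (1.10) and marrow M2-like macrophages (0.89) of the panel. The list mean was -0.66 to -0.97 in SMP and -0.70 and -0.19 in basophils. Beside cMoP, both means were lower in SMP. The cMoP arrays lay at 1.91 to 2.27 for proliferation and at 0.82 to 1.24 for the list.

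Of 12831 genes ranked by their correlation with the list mean, the most alike were Hspa9 (0.95), the mitochondrial chaperone mortalin, Rabggtb (0.95), Ipo5 (0.94), an importin, Nup93 (0.94), a nuclear pore protein, C1qbp (0.94), Pa2g4 (0.94), Ptbp1 (0.93), Naa15 (0.93), Timm50 (0.93) and Prmt1 (0.93), an arginine methyltransferase. None of the 100 further ribosome biogenesis genes was among the top 30, and 8 were among the top 100.

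**Figure D5:**
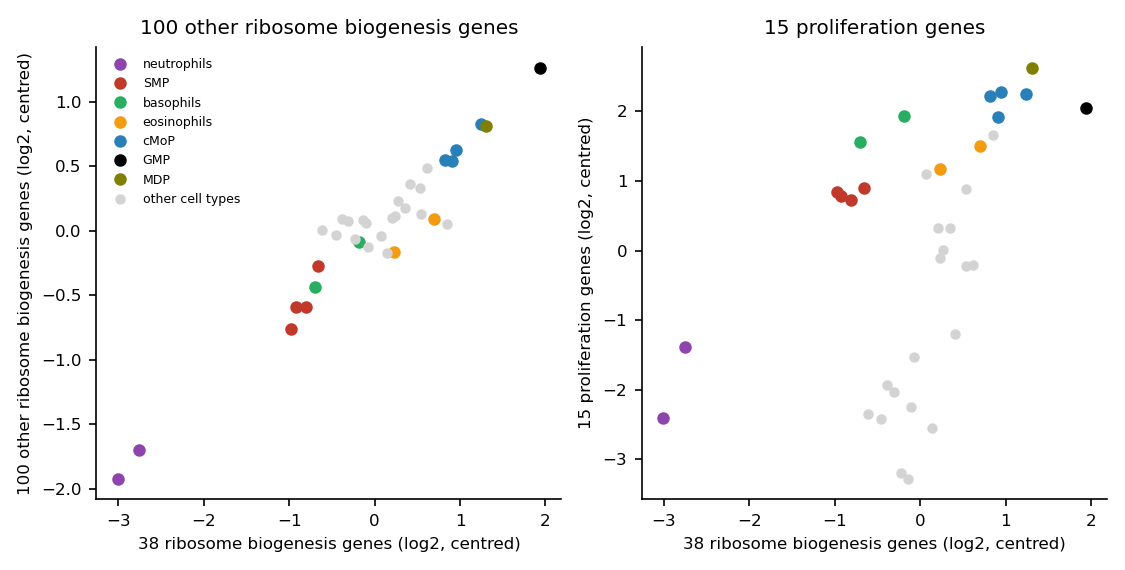
Mean centred level (log2) of 100 further ribosome biogenesis genes (left panel, y axis) and of 15 proliferation genes (right panel, y axis) against that of the 38 genes (x axis), 1 point per array. The left points form a line with a correlation of 0.96, and on the right SMP (0.72 to 0.89) and basophils (1.56 and 1.94) lie high for their level of ribosome biogenesis genes.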

How the data were processed

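The deposited table of the series gives log2 expression per probe set. How the authors normalised it is not given in the sources used here, and base 2 was inferred from the range (2.30 to 16.02). All arrays share a lowest value of 2.30, at which 43.6% to 48.3% of probe sets lie, and array medians run from 2.31 to 2.39. For arrays the number of arrays limits the precision. Of 34945 probe sets with 1 symbol, 34741 matched RefSeq (GRCm38.p6). Of the 38 genes, 13 have 1 probe set, and 17 are read by a probe set type that can share sequence with related transcripts.

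Models were fitted with limma 3.58.1 (lmFit, eBayes with trend; R 4.3.3) on the lineage set (cell type and WT title; 10 residual degrees of freedom; 12077 genes) and the tissue panel (cell type and tissue; 6; 11734 genes), keeping genes over the array median on at least 2 arrays. Every adjusted p comes from limma, with Benjamini-Hochberg over all genes. On simulated data 74% (log2 2) and 96% (log2 4) of changed genes were recovered in SMP minus cMoP, and 20% and 71% in M2-like macrophages minus SatM. The simulation changed 200 genes, shuffled the spreads across genes and had no shared lowest value. These rates need not hold for the real table. Members and lists were chosen with earlier results of these data known. Named with array values are Myc, Ncl, Npm1 and Fbl and, per comparison, the 5 largest called differences without overlap in each direction; other names were chosen after their values were seen. Python 3.11.15, numpy 2.4.6, pandas 2.3.3 and matplotlib 3.10.9 made the tables and figures.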

Additional observations from a re-analysis of the deposited data

Results flagged for a closer look

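In groups of 4 arrays, 13 of 114 sets of values had 1 array far from the others by Dixon's criterion at the 95% level, where chance gives about 1 in 20 for values without ties. That rate does not hold for Rrp12 and Nle1, whose other 3 arrays are tied, and Nop16 in SMP and Rrp9 in panel SatM come close to this. It need not hold for the rest either. Each panel SatM array is of a different tissue, and cMoP and SMP each hold both title sets. The part of tissue and title set in these values was not tested. Among cMoP, Nolc1 was low in WT 1 (8.21, others 9.51 to 9.65), Imp4 low in WT 1 (6.44, others 7.78 to 8.02), and Nhp2 (8.88, others 7.78 to 7.97) and Utp20 (7.94, others 7.36 to 7.45) high in WT 2. Among SMP, Nop56 was high in SMP 1 (9.91, others 8.52 to 8.71), Nop58 low in SMP 2 (5.91, others 7.23 to 7.37), Rrp9 high in SMP 2 (6.04, others 4.34 to 4.53), and Rrp12 (3.39, others 2.72) and Nop16 (3.96, others 2.76 to 2.77) high in WT 2. Among panel SatM, Polr1b (3.61), Rrp9 (4.93) and Nle1 (3.87) were high in lung and Nop56 in blood (11.51, others 9.75 to 9.84).

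The difference between the cMoP and SMP maturation steps was called in limma for 18 genes: Fbl 1.80, Gar1 1.96, Gnl3 2.01, Heatr1 3.20, Mybbp1a 1.42, Nolc1 3.57, Nop10 2.44, Nop56 3.45, Nop58 2.02, Pes1 1.47, Polr1a 1.98, Ppan 1.72, Rrp12 1.90, Rrp1b 4.48, Rrs1 1.82, Utp20 3.71, Wdr43 2.92 and Wdr75 2.66. The Msr1 dull Ceacam1 dull cells had a median difference from SatM over the list of 0.913 in marrow and -0.31 in lung, and this difference between tissues was not tested.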

How the results depend on the processing

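Of 2012 alternative values of the 113 named gene results, 1871 stayed on their side of the threshold, 129 fell below it and 12 passed it. No value called in the main fit or in the alternative changed its sign. A change of sign was not counted where neither was called. Of 276 counts, 224 stayed within 1.5 times. With the compared groups alone, the counts were 4 (SMP minus SatM), 1 (SatM minus inflammatory monocytes), 0 (SMP minus basophils), 0 (GMP and MDP minus cMoP), 2 (WT minus numbered), 0 (M2-like) and 0 (Msr1-Ceacam1-). With the numbered set alone they were 9 (SMP minus SatM), 0 (SMP minus basophils) and 3 (GMP and MDP). Averaging all probe sets of each gene gave 1 (SMP minus basophils), 0 (GMP and MDP), 3 (WT), 2 (M2-like) and 1 (Msr1-Ceacam1-). No filter gave 0 for SMP minus basophils, M2-like and Msr1-Ceacam1-. SMP minus basophils was 0 with the numbered set as reference or without the WT term. eBayes without trend gave 2 (GMP and MDP) and 1 (Msr1-Ceacam1-), which was 1 after quantile normalisation and 0 without the tissue term.

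Leaving out 1 array gave 8 to 17 (cMoP minus inflammatory monocytes), 7 to 15 (SMP minus SatM), 11 to 21 (difference of the steps), 26 to 29 (SMP minus cMoP), 0 to 2 (SatM minus inflammatory monocytes), 0 to 5 (SMP minus basophils), 0 to 3 (GMP and MDP), 24 to 28, 27 to 31 and 27 to 30 (neutrophils), 4 to 9 (WT), 0 to 2 (M2-like), 0 to 2 (lung macrophages), 0 to 0 (other Ly6C-), 0 to 5 (Msr1-Ceacam1-) and 0 to 10 (dull). The cause was not tested, and the shares of all genes called in these refits are not given here. Deviations of same-numbered arrays correlated at -0.10 to 0.16 over 21 pairs of numbered groups (above 0.1 for the 3 pairs among basophils, eosinophils and neutrophils) and at 0.23 between the WT arrays of cMoP and SMP. With 2 arrays a group this does not settle whether numbers pair samples, and no label says so. With a replicate block the counts were 16 (cMoP minus inflammatory monocytes), 14, 18, 27 (SMP minus cMoP), 0, 5, 28, 32, 30 and 6 (WT), each within 1.5 times. Probe sets near their lowest reading (Nle1, Nop16, Rrp12, Polr1b, and Myc and Fbl in neutrophils) may limit what can be read of a fall.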
